A study of Mus musculus with 2 samples.

Results

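Retained intron transcripts are RNAs that the GENCODE annotation describes as carrying sequence which other transcripts of the same gene remove by splicing. They were chosen by that label in the transcript names of the deposited tables, which no measured value entered: 21848 of 141767 annotated transcripts (15.4%), in 9421 of 55450 genes, and each was found in both kinds of table. Of these genes, 9412 also had another kind of transcript and are called host genes here, 9119 of them of protein-coding type. 4126 host genes had 1 retained intron transcript, and the small nucleolar RNA host Gas5 had the most, 20. The RNA was poly(A)+ RNA of the left cerebral cortex of adult mice of strain B6NCrl, a C57BL/6 substrain, aged 6 months, with no allele, treatment or second genotype in the labels. The labels gave 1 group of 2 libraries, made from 20 ng of RNA with transposase fragmentation (Nextera) and numbered as biological replicates 1 and 2. Both carried the same donor entry and separate sample records, so the spread below is that between these libraries and may be technical. The labels called the tissue male in 1 field and gave the sex as not collected in another.

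Each library was quantified in 2 ways. The first tables give an expected count, TPM (a level corrected for transcript length and scaled to the same sum in each library) and the isoform percent, the share of the gene's TPM that a transcript takes. The second tables give an estimated count and TPM, from which the same percent was computed. Annotated transcripts of replicates 1 and 2 took 51876180 and 26771051 fragments in the first tables, and 76100930 and 46367810 in the second. The mean fragment lengths in the tables were 165 and 124 bases in the first tables and 134 and 98.3 in the second, with replicate 2 the shorter in both. Pan-neuronal marker genes had median levels of 350 and 366 TPM in replicates 1 and 2, and cerebellum markers 0.635 and 0.525 TPM. With 1 group there is nothing to test between conditions: the values are given per library, with mean ± SD (n = 2) for summaries.

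As background, an intron that stays in a polyadenylated RNA usually brings a stop codon into the reading frame. Many such RNAs are held in the nucleus until they are spliced or degraded, and those that reach the cytoplasm can be destroyed by nonsense-mediated decay, the pathway that removes RNAs with early stop codons. Detained introns are best known in genes for splicing factors and their kinases, where they set protein output, and neurons are known to use retained introns in RNA control. A fragment from an intron can also come from unspliced precursor RNA, and a transcript model that begins or ends within an intron may be an incompletely known RNA. Fragments shared by a coding transcript and a retained intron transcript are divided between them by the quantifier.

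The members fall into kinds that their sequence shows. The first kind holds a whole intron of a coding transcript. The 8 introns below lie between coding exons and were chosen as short examples. Their transcripts were among the most abundant of this kind or took most of their gene's TPM. Members with longer whole introns, such as Cir1-202 with 338 bases, are not shown. The sequences come from the GENCODE M21 transcripts, on the strand of the gene, and the capitals mark the GT and AG at which the intron begins and ends.
Mrps26-201: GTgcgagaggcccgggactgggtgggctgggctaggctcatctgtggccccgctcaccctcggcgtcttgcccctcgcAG
Prelid1-202: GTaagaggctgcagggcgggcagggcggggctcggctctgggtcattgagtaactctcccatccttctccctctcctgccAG
Mrps24-201: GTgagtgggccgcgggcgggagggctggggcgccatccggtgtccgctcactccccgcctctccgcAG
Rps20-201: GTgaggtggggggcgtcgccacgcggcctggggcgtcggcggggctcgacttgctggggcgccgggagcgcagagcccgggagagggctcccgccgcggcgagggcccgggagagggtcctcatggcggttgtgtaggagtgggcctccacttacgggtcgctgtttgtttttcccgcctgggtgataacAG
Rps16-202: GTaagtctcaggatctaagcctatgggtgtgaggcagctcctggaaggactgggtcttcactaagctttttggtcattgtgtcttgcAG
Hsp90ab1-204: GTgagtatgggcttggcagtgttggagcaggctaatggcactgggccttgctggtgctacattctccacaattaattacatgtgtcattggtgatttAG
Hsp90aa1-206: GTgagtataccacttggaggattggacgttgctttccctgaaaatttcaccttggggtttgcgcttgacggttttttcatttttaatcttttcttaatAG
Pabpc1-204: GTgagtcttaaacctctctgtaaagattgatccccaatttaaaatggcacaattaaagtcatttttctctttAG

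On mm10 the Mrps26 intron lies at chr2:130564228-130564307 (plus strand), that of Prelid1 at chr13:55324445-55324526 (plus) and that of Mrps24 at chr11:5707556-5707623 (minus). The Rps20 intron lies at chr4:3835292-3835483 (minus) and that of Rps16 at chr7:28352274-28352362 (plus). The introns of Hsp90ab1 (chr17:45570567-45570665), Hsp90aa1 (chr12:110695419-110695518) and Pabpc1 (chr15:36598128-36598201) are on the minus strand. All 8 begin with GT and end with AG. By that choice they are short, from 68 bases in Mrps24 to 192 in Rps20. Their GC content runs from 32.4% in Pabpc1 to 77.9% in Mrps24.

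The second kind holds no whole intron: its model runs from an exon into an intron and ends there, or begins inside an intron. The 4 joins below are the leading members of this kind in an abundant cyclophilin gene, a ribosomal protein gene, a translocation channel gene and a splicing kinase gene described below. In Ppia-203, Sec62-202 and Prpf4b-206 the first 10 bases are coding exon and the capitals mark the unused GT at the intron's start. In Rps16-203 the last 10 bases are coding exon and the capitals mark the unused AG at the intron's end.
Ppia-203: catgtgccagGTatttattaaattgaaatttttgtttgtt
Rps16-203: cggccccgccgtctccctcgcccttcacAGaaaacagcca
Sec62-202: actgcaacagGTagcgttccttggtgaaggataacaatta
Prpf4b-206: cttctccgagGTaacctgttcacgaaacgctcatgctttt

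The joins lie at chr11:6418305-6418344, chr7:28350962-28351001, chr3:30801156-30801195 and chr13:34884418-34884457, all on the plus strand of mm10. Ppia-203 ends 123 bases into a 798-base intron, and Rps16-203 begins 68 bases before the end of a 140-base intron. Sec62-202 ends 376 bases into an intron of 8656 bases, and Prpf4b-206 ends 339 bases into an intron of 2242 bases.

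Retained intron transcripts took 3.60% of the TPM of annotated transcripts in replicate 1 and 4.28% in replicate 2 in the first tables (3.94% ± 0.482, SD, n = 2). In the second tables the shares were 2.90% and 3.54% (3.22% ± 0.453, SD, n = 2). By TPM, replicate 2 was higher in both quantifications. In bulk tissue, fewer cells of a type and less RNA per cell cannot be told apart. Within the host genes alone, retained intron transcripts took 6.65% and 7.55% of TPM in the first tables and 6.99% and 7.61% in the second. Counted in fragments within the host genes, the shares were 3.41% and 3.72%, then 3.98% and 3.97%. The share in the median host gene, given below, was lower in replicate 2 in both quantifications.

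By their share of TPM, retained intron transcripts lay between the other minor kinds of transcript of the annotation. Processed transcripts, which have no open reading frame, took 4.13% and 4.64% in the first tables and 3.27% and 3.85% in the second. Transcripts labelled for nonsense-mediated decay took 2.48% and 2.79%, then 2.62% and 2.89%. Protein-coding transcripts took 77.7% and 78.3%, then 59.6% and 65.4%. By TPM over all annotated transcripts, the order of the 3 minor kinds was the same in all 4 tables. Within the host genes, which all have a retained intron transcript, retained intron transcripts were the largest of the 3 by TPM. Counted in fragments instead of TPM, the retained intron share was lower, at 1.95% and 2.18% in the first tables and 2.21% and 2.27% in the second. Processed transcripts then took 1.80% and 2.05%, then 1.87% and 2.05%. Nonsense-mediated decay transcripts took 1.91% and 2.10%, then 2.90% and 2.79%. In this unit retained intron transcripts were the largest of the 3 in the first tables and nonsense-mediated decay transcripts in the second. TPM divides by length, and the median member is 881 bases long against 1816 for a protein-coding transcript.

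**Figure D1:**
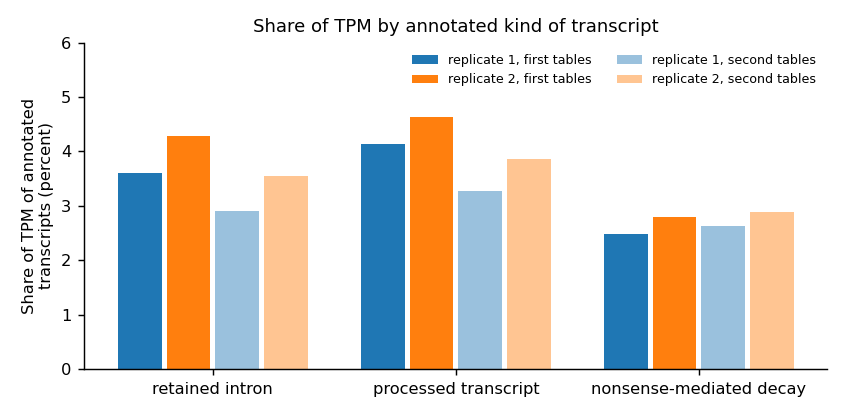
Share of the TPM of annotated transcripts (vertical axis, percent) held by 3 annotated kinds of transcript in each library (blue replicate 1, orange replicate 2) and quantification (dark first tables, pale second tables), 1 bar per table. Retained intron transcripts sit between 2.90% and 4.28%, below processed transcripts in every table and above nonsense-mediated decay transcripts in every table.

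The sum was concentrated in few members. The 10 most abundant members held 27.8% and 34.1% of retained intron TPM in the first tables and 27.8% and 35.2% in the second, and the 100 most abundant held between 54.4% and 62.6%. At the other end, 4577 members (20.9%) were listed at 0 in all 4 tables.

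Of the abundant members described here, Rps16-202 and Hsp90ab1-204 hold a whole intron and the others end or begin inside one. Ppia-203, from the gene of the prolyl isomerase cyclophilin A, lies at chr11:6415868-6418437 and had 1388 and 1586 TPM in the first tables and 1495 and 1810.0 in the second. The deposited credibility interval of Ppia-203, whose level is not given, ran from 1309 to 1385 TPM in replicate 1 and from 1464 to 1559 in replicate 2. The deposited TPM of this transcript lay above its own interval in both libraries, as did that of Rps16-203. Some other abundant members, such as Rps16-202 and Rps26-202, lay above theirs in replicate 2 only. Hsp90ab1-204, from a cytosolic HSP90 chaperone gene, had 404 and 486 TPM, then 324 and 446. Chchd10-202, from a gene for a protein of the mitochondrial intermembrane space, had 509.6 and 534 TPM, then 356 and 461. In Ppia-203, Hsp90ab1-204 and Chchd10-202 the quantifications lay closer together, as ratios, than in the ribosomal protein members that follow.

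Small ribosomal subunit genes supplied 4 of these members. Rps16-203 had 712 and 764 TPM in the first tables and 247 and 278 in the second, and Rps16-202 had 418 and 485, then 235 and 272. Rps26-202 had 524 and 623 TPM, then 216 and 369. Each was lower in the second tables in both libraries. The widest gap was that of Rps19-206, with 374 and 355 TPM in the first tables and 10.3 and 10.7 in the second. Ribosomal protein genes and Ppia have many near-identical processed copies in the mouse genome, so how their fragments were divided is uncertain.

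Genes of mitochondrial respiration supplied 3 more. Cox7b-203, from a cytochrome oxidase subunit gene, had 246 and 550 TPM in the first tables and 359 and 544 in the second. Ndufc1-203, from a complex I gene, had 406 and 659 TPM, then 314 and 553. Both were higher in replicate 2 in both quantifications. Atp5j-208, from an ATP synthase gene, had 409 and 436 TPM, then 131 and 215. Uchl1-202, from the gene of a ubiquitin hydrolase abundant in neurons, had 546 and 461 TPM, then 121 and 119, so the quantifications differed more than the libraries. Grcc10-203 had 615 and 582 TPM, then 303 and 357.

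**Figure D2:**
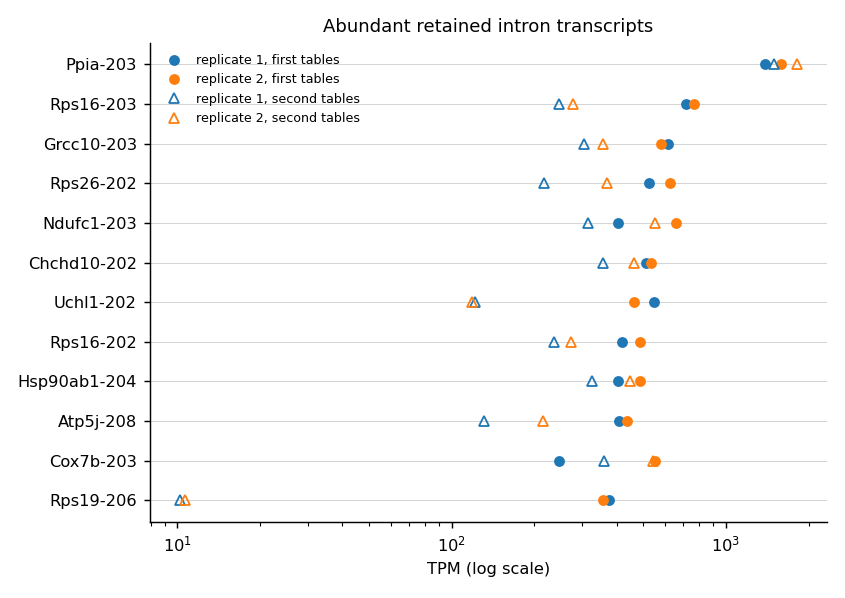
Level of abundant retained intron transcripts (horizontal axis, TPM, log scale), with circles for the first and triangles for the second tables, blue for replicate 1 and orange for replicate 2. Ppia-203 lies between 1388 and 1810.0 TPM, while Rps19-206 lies at 374 and 355 TPM in the first tables and at 10.3 and 10.7 in the second.

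The threshold of detection was a TPM of 1, reached in each library. Under this rule 1870 members (8.56%) were detected in the first tables against 17.7% of all annotated transcripts, and in the second 1817 (8.32%) against 17.7%. In both quantifications together 1450 members (6.64%), in 1225 genes, were detected against 15.6% of all transcripts. The corresponding shares were 28.9% for protein-coding, 14.4% for nonsense-mediated decay and 10.5% for processed transcripts. The detected members had median levels of 4.75 and 4.92 TPM in the first tables and 3.98 and 4.22 in the second.

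The estimates of these members were less precise than those of coding transcripts. The deposited posterior SD of the count had a median of 8.91% of the count in replicate 1 and 12.3% in replicate 2, against 3.85% and 5.86% for detected protein-coding transcripts. Replicate 2, with fewer fragments, was the less precise. Between the quantifications, 150 detected members (10.3%) differed in mean TPM by at least 2-fold, against 5.42% of all detected transcripts.

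By exon structure, set against all coding transcripts of the same gene, 6646 members (30.4%) held at least 1 whole intron. Another 14906 (68.2%) held none but had an end inside an intron, and 296 did neither. The whole-intron members took 21.7% and 19.3% of retained intron TPM in the first tables and 22.9% and 21% in the second, and those with an end in an intron took between 75.4% and 79.1%. As a share of all annotated TPM, the whole-intron members held 0.783% and 0.826% in the first tables. Among the 1450 detected members, 485 (33.4%) held a whole intron and 926 had an end in an intron.

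The detected members carried little sequence of their own. The median member had 42.4% of its bases outside the exons of its gene's coding transcripts, and the median detected member 22.2%, or 179 bases. Of the detected members, 458 (31.6%) had fewer than 100 such bases. 143 detected members (9.86%) overlapped exons of another gene expressed at 1 TPM or more, on either strand, so part of their fragments may belong there. The labels and headers do not state whether strand was used.

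The whole introns were short and began and ended as most introns do. The members together hold 8676 different whole introns, of which 8495 (97.9%) have GT and AG at their ends and 7964 (91.8%) lie between coding bases. Their median length was 277 bases, against 1364 for the 140615 introns of the host genes' coding transcripts. In detected members the median of 608 introns was 170 bases (interquartile range 95.0 to 348). Of these, 27.5% were shorter than 100 bases, against 5.75% of all introns of the coding transcripts. The median GC content of the detected members' introns was 55.6%, and that of the rest of the same transcripts 55.4%. These lengths describe annotated models, and introns retained outside them were not analysed here.

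**Figure D3:**
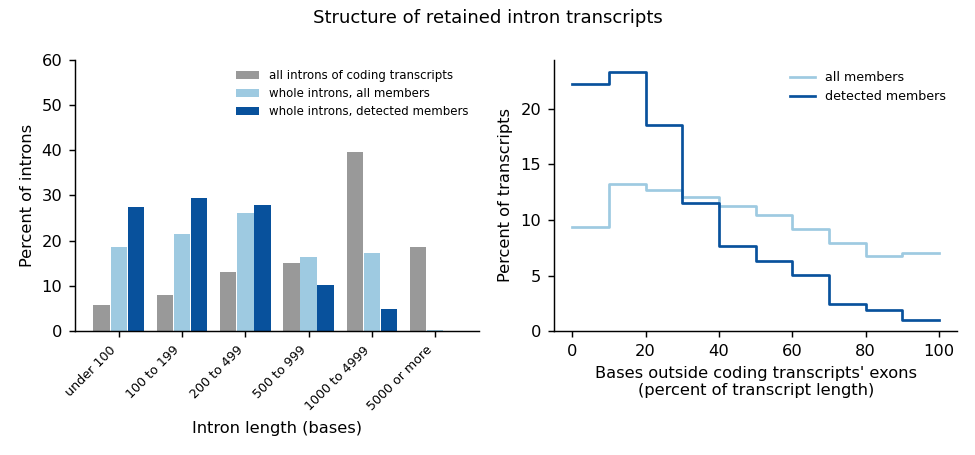
Left: percent of introns (vertical axis) by length in bases for all introns of coding transcripts of the host genes (grey), whole introns in all members (pale blue) and in detected members (dark blue). Right: percent of transcripts by the share of their bases outside the exons of coding transcripts. Of the introns in detected members 27.5% are under 100 bases, against 5.75% of all introns, and the detected members lie to the left of all members, with medians of 22.2% and 42.4%.

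The retained share of a host gene is the summed isoform percent of its retained intron transcripts. It was read in the 5126 host genes at a gene TPM of at least 5 in all 4 tables. In the typical host gene it was small: the medians were 1.21% and 1.02% in the first tables and 1.74% and 1.55% in the second. In 1628 host genes (31.8%) it was under 1% in all 4 tables. In 816 (15.9%) it was at least 10% in all 4, and in 131 (2.56%) at least 50%. In 161 host genes (3.14%) a retained intron transcript was the gene's most abundant transcript in all 4 tables. The unit matters here, since a short transcript takes more TPM per fragment than a long one. As a share of the gene's counts, in an alternative added after the data were seen, 493 host genes (9.62%) reached 10% in all 4 tables and 59 reached 50%.

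The share was lower in more highly expressed host genes. In 405 host genes above 200 TPM the medians were 0.316% and 0.290% in the first tables and 0.392% and 0.363% in the second, and in 761 host genes between 5 and 10 TPM they were 2.08% and 1.74%, then 2.83% and 2.60%. Nonsense-mediated decay transcripts reached a share of 10% in all 4 tables in 24.4% of the 2488 genes that have them beside a coding transcript, and processed transcripts in 20.8% of 4015. For retained intron transcripts the same figure was 15.8% of 5089 genes. The ranks of the share were close between quantifications (Spearman 0.888 in replicate 1 and 0.864 in replicate 2, over 5126 genes) and between libraries (0.798 in the first tables over 5486 genes and 0.863 in the second over 5153). The values compared share the same libraries or the same gene models, and genes are not independent replicates.

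**Figure D4:**
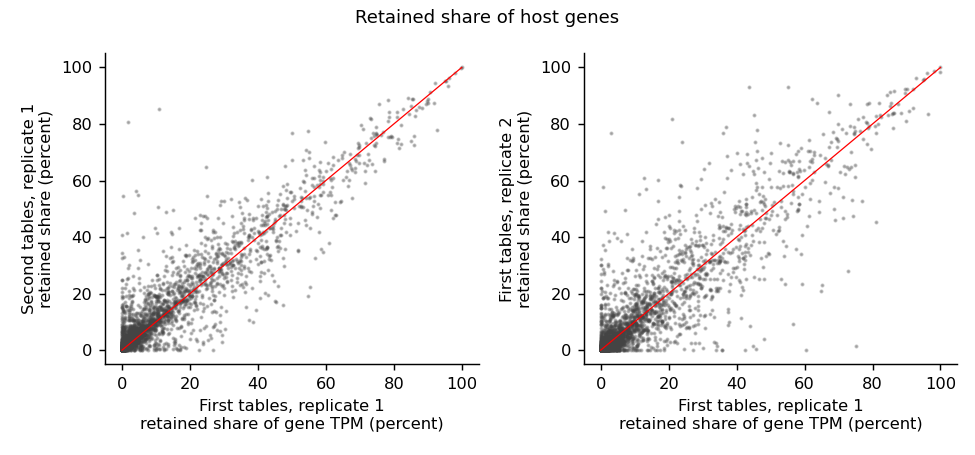
Each point is 1 of 5126 host genes, with its retained share of gene TPM (percent) in replicate 1 of the first tables on the horizontal axis, and in replicate 1 of the second tables (left) or replicate 2 of the first tables (right) on the vertical axis. The red line marks equal values. Most genes lie near the origin, with medians between 1.02% and 1.74%, and 131 genes have at least 50% in all 4 tables.

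Among the host genes at a gene TPM of at least 10, those with the highest shares included 4 genes of the mitochondrial ribosome. The function lists below hold no list of such genes. How many other mitochondrial ribosome genes had low shares was therefore not counted, and the 4 do not describe the group. The retained share of Mrps26 was 95.3% and 96.0% in the first tables and 95.2% and 95.7% in the second, nearly all of it Mrps26-201, which holds the 80-base intron shown above and had 107 and 133 TPM in the first tables. The share of Mrpl57 was 89.7% and 90.9%, then 88.1% and 88.3%. That of Mrps25 was 85.1% and 86.5%, then 86.5% and 87.4%. That of Mrps24, with the 68-base intron, was 78.3% and 87.2%, then 88.3% and 91.2%. In Mrpl57 and Mrps25 the leading member has an end in an intron and no whole intron. By counts the share was 81.4% to 84.2% in Mrps26 and 68.0% to 86.3% in Mrps24, but 51.1% to 58.9% in Mrpl57 and 28.4% to 35.8% in Mrps25.

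Rps20, a small ribosomal subunit gene, had shares of 90.2% and 92.5% in the first tables and 87.4% and 90.0% in the second, through Rps20-201 with its 192-base intron. Prelid1, which moves phospholipid within mitochondria, had 89.6% and 92.2%, then 87.2% and 91.5%, through Prelid1-202 with its 82-base intron. Sec62, a component of the protein translocation channel of the endoplasmic reticulum, had 84.6% and 83.2%, then 83.6% and 83.1%, and its leading member runs 376 bases into an intron. Nmd3, the export adaptor of the large ribosomal subunit, had 81.1% and 82.8%, then 84.1% and 83.3%, with only 21 bases of its leading member outside coding exons. By TPM these 4 genes stayed above 80% in every table. By counts they did not: the share of Nmd3 was between 26.9% and 34.2%, that of Sec62 between 40.5% and 41.5%, that of Rps20 between 46.6% and 61.1% and that of Prelid1 between 74.5% and 83.5%.

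A2ml1, of the alpha-2-macroglobulin family of protease inhibitors, was at 100% in all 4 tables, with no TPM on any other transcript, and Adamtsl2, a secreted matrix protein, was at 98.1% and 98.9%, then 98.0% and 98.5%. Gfra4, a receptor of the GDNF family, had 96.0% and 98.2%, then 93.6% and 97.6%. Its leading member holds a 53-base intron that is exon in another coding transcript of the gene. Tcf7l2, a transcription factor of Wnt signalling, had 88.4% and 83.8%, then 85.6% and 82.9%. Cir1, a transcriptional corepressor, had 85.6% and 83.5%, then 88.8% and 86.2%, through a member with a 338-base whole intron. Atg4d, an autophagy protease, had 94.9% and 95.5%, then 95.2% and 95.0%, but its leading member overlaps exons of the expressed gene Kri1. Tsn, Amn, Rfc2, Pcif1 and Sytl2 also belonged to this group, all between 79.7% and 94.4% by TPM in every table. By counts Tsn lay between 41.0% and 56.6% and Pcif1 between 26.1% and 32.9%.

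A high share did not mean much retained sequence. In the 131 genes at 50% or more, the leading member had a median of 12.2% of its bases outside coding exons, against 39.9% for the leading members of all 5126 host genes. It held a whole intron in 33 of the 131 (25.2%), against 28.8% of all. With only whole-intron members counted, a set added after the data were seen, 220 host genes reached 10% in all 4 tables and 28 reached 50%. The highest of them at a gene TPM of at least 10 were Mrps26, Gfra4, Rps20, Prelid1, Cir1 and Mrps24, followed by Dennd6b, Sugt1, Ncl and Pabpc1. The threshold of 50% lies in a continuous range of values: Nol7, just inside, had a lowest value of 50%, and Snrpb2, just outside, had 49.7%.

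Host genes were then grouped by function, in lists chosen with earlier results of these data known. Beside each count stands that over all host genes, of which 15.9% had a share of at least 10% in all 4 tables, with the medians of 1.21%, 1.02%, 1.74% and 1.55% in replicates 1 and 2 of the first and then the second tables. Kinases that phosphorylate splicing factors had the highest median of any list, 17.1% and 16.6% in the first tables and 19.7% and 19.1% in the second, with 4 of 7 genes at 10% or more. Prpf4b had 78.5% and 73.0%, then 82.3% and 77.1%, through a member that runs 339 bases past an intron's start. Clk4 had 29.2% and 28.0%, then 30.0% and 24.2%. Clk1, whose own retained introns are a known case, had 17.1% and 16.6%, then 20.4% and 19.1%. Its leading member Clk1-204 holds 3 whole introns but took only 8.63% and 7.94%, then 8.74% and 9.05%. That member had 1.02 and 0.79 TPM in the first tables, so it was not detected in both libraries. Srpk1 had 17.6% and 35.0%, then 19.7% and 25.7%. By counts the list's medians were lower, at 5.69% and 9.93%, then 6.53% and 8.48%, and 3 of the 7 reached 10%, against 9.62% of all host genes. Srpk1 was then between 3.73% and 9.93%, and Clk4 between 16.5% and 18.9%. The 7 genes were few, and no test was made of the list.

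Genes known from background for detained or regulated introns had medians of 6.68% and 4.13%, then 6.93% and 5.02%, with 7 of 18 at 10% or more. The lists overlap: Clk1 and Clk4 of these 7 are also among the splicing kinases. Srsf2 is also among the SR proteins and U2af1l4 among the core spliceosome genes. Mdm4, a p53 regulator, had 39.0% and 27.5%, then 38.9% and 28.1%. Ogt, the enzyme that adds N-acetylglucosamine to proteins, had 28.7% and 15.5%, then 29.0% and 16.0%, so replicate 1 was the higher in both quantifications. Rbm39 had 15.6% and 18.5%, then 15% and 17.7%, and Srsf2, an SR splicing protein, had 10.3% and 19.8%, then 14.5% and 18.2%. The only retained intron transcript of Srsf2 has 450 of its 1814 bases in exons of the expressed gene Mettl23. The leading member of U2af1l4 has 111 of 874 bases in exons of Psenen. Part of their fragments may belong to those genes. Other known cases were low: Srsf3 lay between 0.816% and 0.996%, and Ddx5, an RNA helicase, between 0.196% and 0.270%. The SR proteins as a list had medians of 4.47% and 2.32%, then 5.54% and 2.57%, with 1 of 10 at 10% or more, Srsf2. By counts 6 of the 18 genes known for such introns reached 10%, against 9.62% of all host genes. Mdm4 did not, with 5% to 6.24%, and Ogt was between 7.64% and 15.2%. Ddx5 was between 0.0333% and 0.0526%.

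Core spliceosome genes had 8 of 33 at 10% or more, with medians of 1.58% and 2.03%, then 5.28% and 2.86%. The tri-snRNP gene Prpf31 had 65.5% and 76.6%, then 70.2% and 79.3%, and Snrpb2, of the U2 particle, had 49.7% and 66.1%, then 56.0% and 65.5%. Chromatin modifiers had 8 of 29, led by the NuRD remodeller Chd4 at 79.5% and 71.2%, then 75.4% and 72.5%. Among the hnRNP proteins 2 of 14 reached 10%, and Hnrnpl had 55.2% and 92.9%, then 70.2% and 94.3%. Hosts of small nucleolar RNAs had 3 of 16, led by the nucleolar protein gene Ncl at 86.0% and 83.7%, then 75.7% and 72.2%. The poly(A)-binding protein gene Pabpc1, with the 74-base intron shown above, had 67.2% and 84.2%, then 69.4% and 81.4%. By TPM the hnRNP genes (14.3%) and the small nucleolar RNA hosts (18.8%) were near the 15.9% of all host genes. By counts 7 of 33 core spliceosome genes and 3 of 29 chromatin modifiers reached 10%. So did 1 of 14 hnRNP genes and 3 of 16 small nucleolar RNA hosts, against 9.62% of all host genes. The chromatin modifiers (10.3%) were near that figure and the hnRNP genes (7.14%) below it. The share of Chd4 was then 10.1% to 15.4%, that of Snrpb2 18.7% to 34.6% and that of Prpf31 39.0% to 57.8%. That of Pabpc1 was 39.0% to 61.9%, that of Hnrnpl 29.0% to 82.6% and that of Ncl 71.2% to 79.1%.

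Neuronal gene lists lay on both sides of the host genes as a whole. Voltage-gated channels had medians of 3.62% and 2.85%, then 5.08% and 3.08%, with 2 of 17 at 10% or more, among them the calcium channel subunit gene Cacnb2 at 37.0% and 43.1%, then 39.1% and 40.0%. Glutamate and GABA receptors had 3.68% and 2.86%, then 4.86% and 2.86%, with 2 of 11, among them Grin2a, an NMDA receptor subunit gene, at 24.1% and 12.7%, then 23.3% and 13.9%. Synaptic vesicle and release genes had lower medians, 0.772% and 0.357%, then 1.49% and 1.16%, with 3 of 25. The median gene level of this list was 116 and 72.2 TPM in the first tables. Host genes between 50 and 200 TPM had medians of 0.827% and 0.789%, then 0.992% and 0.984%. Among the vesicle genes Slc17a7, the vesicular glutamate transporter of cortical neurons, had 40.8% and 52.8%, then 27.7% and 48.4%. Unc13a, a vesicle priming factor, had 19.1% and 39.8%, then 21.3% and 36.4%. Neuronal genes known for introns controlled by Ptbp1 or retained in localised RNA had medians of 0.397% and 0.709%, then 0.826% and 1.27%, with 0 of 6 at 10% or more. Camk2a, the kinase of synaptic plasticity, was at or below 0.00277% in every table at gene levels of 848 and 1083 TPM in the first tables. By counts 1 of 17 channel genes, 0 of 11 receptor genes and 1 of 25 vesicle genes reached 10%, against 9.62% of all host genes. Unc13a was then between 2.40% and 5.48%, Grin2a between 4.11% and 10.5% and Cacnb2 between 14.2% and 20.6%, while Slc17a7 was between 26.2% and 51.0%. The leading members of Slc17a7 and Grin2a hold at least 1 whole intron. Those of Cacnb2 and Unc13a hold none, with 18 of 867 and 116 of 944 bases outside coding exons.

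Housekeeping lists were low in their medians but not in every gene. Cytosolic ribosomal proteins had 0.332% and 0.274%, then 0.619% and 0.639%, with 6 of 63 at 10% or more. Rps16 had 92.8% and 96.2%, then 78.0% and 80.2%. Nuclear genes of respiratory complexes I to V had 0.498% and 0.392%, then 0.422% and 0.310%, with 5 of 45. In the first tables the median gene level was 1082 and 1151 TPM in the ribosomal list and 696 and 756 in the respiratory list. Host genes above 200 TPM of any function had medians of 0.316% and 0.290%, then 0.392% and 0.363%. Function and gene level were not separated here. Glycolysis and citrate cycle genes had 1 of 27, the isocitrate dehydrogenase gene Idh3a, and aminoacyl-tRNA synthetases 0 of 20. Myelin genes had 0 of 9, with medians of 0.932% and 1.24%, then 1.62% and 1.44%. Both HSP90 genes shown above hold a short whole intron, and Hsp90aa1 had a share of 42.6% and 48.2%, then 61.2% and 64.0%. By counts Hsp90aa1 was between 20.6% and 34.8%. In that unit 4 of the 63 ribosomal protein genes and 4 of the 45 respiratory genes reached 10%, against 9.62% of all host genes.

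**Figure D5:**
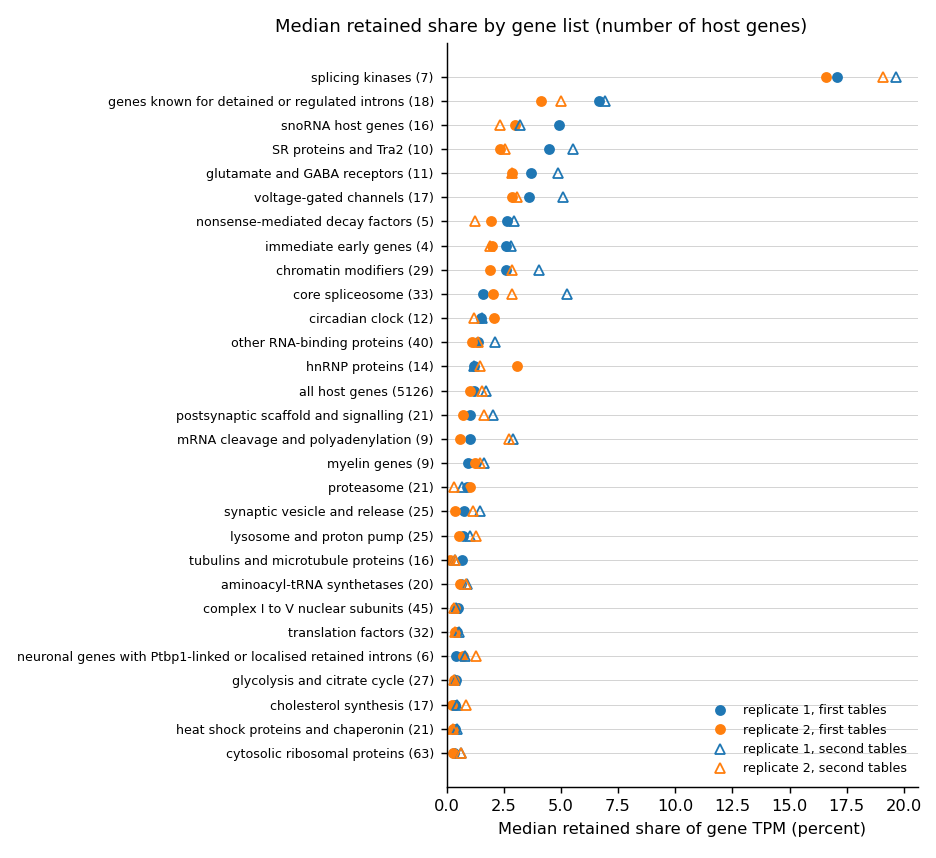
Median retained share of gene TPM (horizontal axis, percent) for lists of host genes by function, with the number of host genes in each median in brackets, circles for the first and triangles for the second tables, blue for replicate 1 and orange for replicate 2. Splicing kinases lie between 16.6% and 19.7%, all host genes between 1.02% and 1.74%, and cytosolic ribosomal proteins below 0.7%.

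Between the libraries, 56 detected members (3.86%) had at least 2-fold more TPM in replicate 2 in both quantifications, against 2.52% of all detected transcripts. 73 members (5.03%) had at least 2-fold less, against 5.92% of all. The retained share was at least 10 percentage points higher in replicate 2 in both quantifications in 143 of 5126 host genes (2.79%) and lower in 121 (2.36%). By isoform percent, 156 of 13304 members in these genes (1.17%) were at least 10 points higher in replicate 2, against 2.80% of all transcripts of the genes, and 129 (0.970%) were lower, against 2.68%. The median difference of the share was near 0, at -0.00688 percentage points in the first tables and -0.0297 in the second. With 1 library against 1, there was no test.

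Fragment length and depth moved with the libraries. In detected members of up to 400 bases the median log2 ratio of replicate 2 to replicate 1 was 0.20 in the first tables and 0.34 in the second, and in those over 2000 bases it was 0.06 and 0.09. Protein-coding transcripts had medians of 0.09 and 0.20 up to 400 bases and 0.05 and 0.21 over 2000. Replicate 2 had the shorter fragments and the lower depth. Their part in the difference of the retained share between the libraries was not tested.

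In 5 of the host genes with the widest differences the share was higher in replicate 2. Egr3, an activity-induced transcription factor, had shares of 43.6% and 93.0% in the first tables and 33.6% and 84.4% in the second. Prkcb, a protein kinase C gene, had 13.3% and 56.8%, then 12% and 58.6%, while Dtx1, a Notch pathway ubiquitin ligase, had 21% and 81.7%, then 14.2% and 79.3%. Clptm1l had 36.1% and 76.9%, then 20.7% and 73.2%, and Dgkz, a diacylglycerol kinase, had 7.08% and 49.5%, then 3.83% and 46.1%. By counts these 5 genes had shares between 0.541% and 60.5% in replicate 1 and between 10% and 95.8% in replicate 2. In these 5 genes replicate 2 was higher in both units, and the gene's own TPM was lower there, as in Egr3 with 43.1 and 24.6 TPM in the first tables. Their leading members hold no whole intron. Outside coding exons lay 11 of 830 bases of that member in Clptm1l, 221 of 3876 in Egr3 and 90 of 480 in Dgkz. In Prkcb it was 297 of 955 and in Dtx1 607 of 1831. Whether fragments shared with coding transcripts were divided differently in the 2 libraries was not tested.

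In 5 others the share was higher in replicate 1. Dock3, a guanine exchange factor of neurons, had 75.0% and 1.34%, then 76.2% and 2.93%. Its leading member Dock3-203, of 529 bases, had 43.1 TPM in replicate 1 and was listed at 0 in replicate 2 in the first tables, and the gene's level was 103 and 14.9 TPM. Aak1, a kinase of endocytosis, had 65.0% and 22.9%, then 60.1% and 21.8%, and its whole-intron member Aak1-203 had 97.1 and 13.1 TPM in the first tables. Casc4 had 72.7% and 27.9%, then 67.3% and 14.1%, and Atrn had 44.9% and 1.46%, then 46.5% and 8.77%. The transcription factor gene Ets2 had 42.4% and 47.0% in replicate 1, and its members were listed at 0 in replicate 2 in both quantifications. By counts these 5 had between 8.86% and 44.7% in replicate 1 and at most 9.16% in replicate 2. The TPM of each of these genes was also higher in replicate 1. Outside coding exons lay 140 of 529 bases of the leading member of Dock3, 159 of 1639 in Aak1 and 135 of 928 in Casc4. In Atrn it was 810 of 4668 and in Ets2 280 of 654.

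The quantifications differed most on a few members. Dock10-206, with 1893 of its 1899 bases outside coding exons, was listed at 0 in both libraries of the first tables and had 319 and 23.2 TPM in the second. Gapdh-206, from the glycolysis gene and with an 84-base whole intron, was at 0 in the first tables and at 12.4 and 20.5 TPM in the second, and Rps23-202 was at 0 and 1.67 against 45.2 and 85.9 TPM. In the other direction, Rpl12-202 had 46.0 and 82.2 TPM in the first tables and was at 0 in the second. Tkt-208, Nae1-202, Mlf2-204 and Hnrnpk-206 were also above 5 TPM in the first tables and below 0.6 in the second. Elp6-202 and Supt7l-206 were above 5 TPM in the second and below 0.1 in the first.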

How the data were processed

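Expected counts, TPM and isoform percent (percent of the gene's TPM) were deposited by the authors in the first tables, and estimated counts and TPM in the second, per the file headers. Both used mm10 and GENCODE M21, per the deposited notes. The aligner and quantifiers are not given in the sources, nor is any use of strand. The deposited counts are fragments, not whole numbers and not normalized. Spike-ins and rows without an annotated gene were left out. Transcripts were joined by identifier, shares computed with pandas 2.3.3 in Python 3.11.15, and exon structures, introns and sequences read from GENCODE M21 on the same build. Computation of shares was tested on simulated data. The simulation drew counts for each transcript apart, so it did not cover how shared fragments are divided. No test was made, since there is 1 group of 2 libraries.

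The members and gene lists were chosen with earlier results of these data known. Named were, by rule, the 15 most abundant members, of which 12 are reported, the 20 host genes of highest lowest share at a gene TPM of at least 10, of which 19 are reported, the 2 highest host genes of each function list at a gene TPM of at least 5, genes of the lists on known introns, the 5 widest library differences in each direction, and the 5 widest ratios between quantifications in each direction (pseudocount 0.1, TPM of at least 5 in the higher). Of the first 2 groups, the others are not reported here. Other list members named (Srpk1), genes beside the 50% threshold and whole-intron hosts were chosen after their values were seen. Alternatives covered the denominator, unit, quantification, minimum level and each library left out.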

Additional observations from a re-analysis of the deposited data

How the results depend on the processing

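The retained intron share of TPM, 3.94% as the mean of the libraries in the first tables, was 7.10% of host gene TPM, 2.07% of counts, 3.22% in the second tables and 2.99% from members of at least 500 bases, and lay between 3.60% and 4.28% with either library left out. Added after the data were seen, it was 0.805% from whole-intron members only. The number of detected members, 1870 in the first tables, became 2812 at a TPM minimum of 0.5, 630 at 5 and 3421 at 10 counts or more in both libraries, and 2419 to 2460 with either library left out. The number of host genes with a majority of TPM on these transcripts, 162 in the first tables, became 246 at a gene TPM minimum of 1, 75 by counts, 229 to 245 with either library left out, and, added later, 35 from whole-intron members. The median share, 1.16%, was 1.41% at a gene TPM minimum of 1, 1.66% in the second tables, 0.686% by counts, and 1.08% to 1.32% with either library left out. The median library difference lay between -0.0297 and 0 percentage points. Of 104 named host genes, 98 had a mean share in the second tables within 10 points of the first, and 91 had a lower share by counts than by TPM. Of 36 with a majority by TPM, 20 had a majority by counts. No paired analysis was possible because there was 1 group. The precision of the counts was lower in replicate 2, the library with fewer and shorter fragments: the median posterior SD over detected members was 12.3% of the count there and 8.91% in replicate 1.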
